A study of Sus scrofa with 8 samples.

Results

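Expression of macrophage and dendritic cell genes was followed in the pig oviduct 24 h after X- or Y-bearing spermatozoa had been introduced into it. The list holds 10 genes, TYROBP, FCER1G, FCGR1A, CD68, CD163, AIF1, CSF1R, LYZ, C1QA and NCF4, and every probe set of the array that the platform annotation assigns to exactly 1 of these symbols was taken as a member. This gave 8 probe sets of 7 genes among the 24123 probe sets of the array. CD163 had 2 probe sets, and CD68, CSF1R and LYZ had no probe set under that single symbol in the annotation used here and were not analysed. In each of 4 Landrace x Large White crossbred sows before ovulation, all parous and weaned, one oviduct received flow-sorted X-spermatozoa and the contralateral oviduct of the same sow received flow-sorted Y-spermatozoa, both as pooled doses from several boars, after both uterine horns had been stapled. The 4 X-spermatozoa arrays and the 4 Y-spermatozoa arrays therefore share surgery, sorting, dose and animal, and neither group is without spermatozoa. The RNA came from cells scraped off the oviductal mucosa, a mixture in which fewer cells of a type and less RNA per cell cannot be told apart.

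Macrophages and dendritic cells are the resident phagocytes of mucosal tissues and take up dead cells, microbes and, in the female tract, spermatozoa. Many of their surface receptors carry no signalling tail of their own and pair with small adaptor proteins whose tyrosine motif, the ITAM, recruits the kinase SYK when the receptor is engaged. The engaged cell can then engulf its target, switch on the oxidase that makes superoxide, and present fragments of what it has eaten.

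Markers of epithelium and of connective tissue were both well above background. OVGP1, the oviduct-specific glycoprotein of secretory cells, had signals of 5841 to 9315, and the epithelial adhesion protein EPCAM had 2891 to 3805. The stromal genes VIM and DCN had 1989 to 3680 and 576 to 1549, and such levels of different probe sets do not give shares of cells. Signals are linear values of Microarray Suite 5.1, which the authors scaled to the same trimmed mean on each array. A background level was set on each array as the 95th percentile of 64 reporter probe sets that have no pig target, and it lay between 8.40 and 12.5. Precision is limited by having only 4 arrays a group. The mean log2 level of the hybridisation controls, which report on the handling of an array, averaged 9.73 on X-spermatozoa arrays (SD 0.07) and 9.94 on Y-spermatozoa arrays (SD 0.10; exact permutation p = 0.0571). Its part in the values below was tested only as a covariate. Single arrays had 9.65 to 9.82 with X-spermatozoa and 9.82 to 10.06 with Y-spermatozoa, so that fit can hardly separate this level from the sperm type.

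The phagocyte genes ranged from below background to well above it. TYROBP, FCER1G, AIF1 and 1 of the 2 CD163 probe sets exceeded background on all 8 arrays. C1QA was below background on 2 arrays and NCF4 on 4, the other CD163 probe set was below it on 7 and FCGR1A on all 8. Among genes of the related lists below, the monocyte receptor CD14 had signals of 6.1 to 13.1 and was below background on 4 arrays. The integrin chain ITGAM was below it on 7, while C1QC, FCGR3A, CTSS and CYBA exceeded it on all 8.

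**Figure D1:**
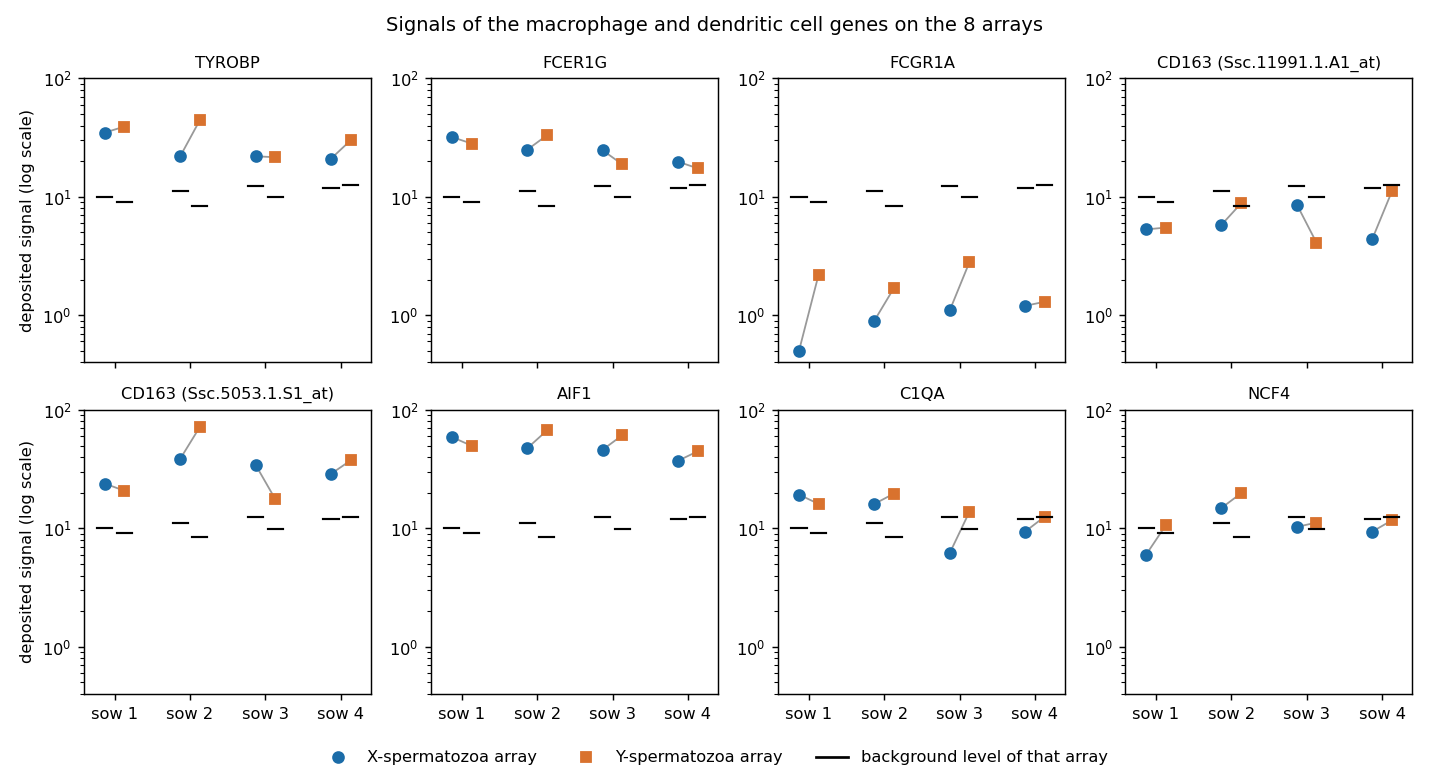
Deposited signal (vertical axis, log scale) of the 8 probe sets on the 8 arrays, by sow (horizontal axis). Circles are X-spermatozoa arrays, squares are Y-spermatozoa arrays, grey lines join the oviducts of 1 sow and black bars give the background level of each array. FCGR1A lies under the bars on all 8 arrays, while the highest signal falls on the Y-spermatozoa array of sow 2 for 6 of the 8 probe sets.

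No member gene above background differed between oviducts with X- and Y-spermatozoa beyond the spread between arrays. In limma, fitted over 23999 probe sets on quantile-normalized log2 values, 1 of the 8 member probe sets passed an unadjusted p under 0.05 and none an adjusted one. The same unadjusted threshold was met by 3.56% of all probe sets, 1.62% higher and 1.94% lower with Y-spermatozoa, and after adjustment by 0%. The probe set that passed was FCGR1A, the one below background everywhere. The log2 difference between Y- and X-spermatozoa was positive for 7 of the 8 probe sets, as it was for 50.7% of all probe sets. With 1 probe set per gene, the brightest, the median of the 7 genes was 0.45 against 0.00 for all probe sets. The genes share RNA samples and cell types, so they are not independent. With every normalized value under a common background level of 10.66 raised to it, the median was 0.19 and none of the 8 probe sets passed.

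TYROBP, the adaptor also called DAP12 that serves receptors of the TREM family, had signals of 34.9, 22.0, 22.0 and 21.0 on the X-spermatozoa arrays of sows 1 to 4, and of 39.2, 44.4, 21.6 and 30.0 on the Y-spermatozoa arrays. The groups overlapped, with sow 1 at 34.9 on the X-spermatozoa side and sow 3 at 21.6 on the Y-spermatozoa side. The group means were 24.98 ± 6.63 and 33.8 ± 10.1 (SD, n = 4 each). The log2 difference of TYROBP was 0.45 (standard error 0.28, fold 1.37 with a 95% interval of 0.872 to 2.15, limma p = 0.146, adjusted p = 1, exact permutation p = 0.2). Normalized values favoured the Y-spermatozoa side in 4 of 4 sows, but in sow 3 by 0.01 only, and in the deposited signals sow 3 went the other way. Blocking on the sow gave a p of 0.0889. Leaving out the Y-spermatozoa array of sow 3 raised the log2 difference to 0.66 and brought p to 0.0317, whereas without the Y-spermatozoa array of sow 2 it was 0.30 (p of 0.329) and without sow 2 it was 0.25 (p of 0.472).

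FCER1G, the gamma chain shared by Fc receptors for IgE and IgG, is the other ITAM adaptor of the list. Its signals were 32.0, 25, 24.7 and 19.8 with X-spermatozoa and 28.2, 33.1, 18.8 and 17.4 with Y-spermatozoa. The Y-spermatozoa side was higher in sow 2 alone. Within sows the normalized log2 differences were -0.16, 0.47, -0.35 and -0.14, against 0.19, 1.07, 0.01 and 0.55 for TYROBP, so the sows had the same order for both adaptors while FCER1G had the lower difference in each. The difference between the adaptors was not tested. The means of 25.4 ± 5.02 and 24.4 ± 7.54 (SD, n = 4 each) differed by -0.05 on the log2 scale after normalization (standard error 0.26, 95% interval -0.65 to 0.56, limma p = 0.867, adjusted p = 1, exact permutation p = 0.886). The interval spans changes from 0.637 to 1.47 times, so larger changes in either direction lie outside it. The sign of so small a difference was not stable and turned positive in 5 of 22 alternative fits. FCER1G and BTK, a gene of the related lists below, are among the immune genes that the study lists as altered, at a p under 0.05. The study used differently normalized values of these arrays. It names a Benjamini-Hochberg correction and does not state whether this p is an adjusted one. The source of the difference for FCER1G was not tested.

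FCGR1A, the high-affinity receptor for IgG that signals through FCER1G, had signals of 0.5, 0.9, 1.1 and 1.2 with X-spermatozoa and of 2.2, 1.7, 2.8 and 1.3 with Y-spermatozoa. The groups did not overlap, which in the normalized values held for 2.07% of all probe sets, 0.896% with the Y-spermatozoa side higher. However, both groups were far below the background level, so no fold is given. The limma p was 0.00361 (adjusted p = 1) and 0.0156 when sows were blocked, and an exact two-sided permutation test gave 0.0286, the smallest value that 4 arrays against 4 allow. The call was kept in all 12 fits that left out an array or a sow. It was lost with 16 added to the signals before log2 (p of 0.232) and with the floor at background, where all 8 values become equal. With the hybridisation controls as a covariate p was 0.14.

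CD163, the scavenger receptor of tissue macrophages for haemoglobin-haptoglobin complexes, varied more between arrays than the adaptors did. The brighter probe set had signals of 23.9, 38.7, 34.4 and 28.9 with X-spermatozoa and of 20.8, 71.9, 17.7 and 37.5 with Y-spermatozoa. Both the highest and the lowest of the 8 values were on Y-spermatozoa arrays, so the X-spermatozoa values lay inside the range of the others. The Y-spermatozoa oviduct was lower in sows 1 and 3 and higher in sows 2 and 4. The log2 difference was 0.06 (standard error 0.44, 95% interval -0.96 to 1.08, limma p = 0.897, adjusted p = 1, exact permutation p = 0.943), and without the Y-spermatozoa array of sow 2 it was -0.34. The dimmer probe set ranged from 4.1 to 11.1 and was below background in the mean of both groups. It also had its lowest value on the Y-spermatozoa array of sow 3. Its limma p was 0.356, and 0.0438 without sow 3.

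AIF1, a calcium-binding protein of the macrophage cytoskeleton also known as IBA1, had signals of 59.1, 47.6, 46.2 and 37.3 with X-spermatozoa and of 49.9, 67.2, 61.3 and 44.8 with Y-spermatozoa. The Y-spermatozoa side was higher in 3 of 4 sows and lower in sow 1, and the groups overlapped. The means were 47.6 ± 8.95 and 55.8 ± 10.3 (SD, n = 4 each), with a log2 difference of 0.26 (standard error 0.19, 95% interval -0.19 to 0.70, limma p = 0.213, adjusted p = 1, exact permutation p = 0.2). This was the narrowest interval among the members above background. Leaving out 1 array or sow moved the difference between 0.15 (without the X-spermatozoa array of sow 4) and 0.42 (without sow 1).

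C1QA, a chain of the complement protein C1q that tissue macrophages secrete, had signals of 19.3, 16.1, 6.2 and 9.4 with X-spermatozoa and of 16.1, 19.7, 13.8 and 12.6 with Y-spermatozoa. The Y-spermatozoa side was higher in sows 2, 3 and 4, and 2 of the X-spermatozoa arrays, those of sows 3 and 4, were below background. The log2 difference was 0.46 (standard error 0.38, 95% interval -0.41 to 1.34, limma p = 0.255, adjusted p = 1, exact permutation p = 0.314). Without the X-spermatozoa array of sow 3 it was 0.15, and without that of sow 1 it was 0.72. Its partner chain C1QC was clearly above background, at 163, 122, 112 and 75.2 with X-spermatozoa and 143, 184, 102 and 103 with Y-spermatozoa. The log2 difference of C1QC was 0.19 (standard error 0.28, limma p = 0.531, exact permutation p = 0.571), and in sow 3 the chains went opposite ways.

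NCF4, the p40phox subunit that brings the phagocyte NADPH oxidase to the membrane, had signals of 6.0, 14.9, 10.3 and 9.4 with X-spermatozoa and of 10.6, 19.8, 11.2 and 11.7 with Y-spermatozoa. Sow 2 was the highest on both sides, and within every sow the Y-spermatozoa oviduct was higher. Being higher in 4 of 4 sows held for 6.44% of all probe sets, and for 3 of the 8 member probe sets (NCF4, FCGR1A and TYROBP). The mean with X-spermatozoa, 10.2 ± 3.67 (SD, n = 4), was below the mean background of these arrays, 11.4, so no fold is given. The limma p was 0.169, and between 0.0529 and 0.401 with 1 array or sow left out. Blocking on the sow, which takes out the level each sow has on both sides, gave 0.0254 (adjusted p = 0.895), at a threshold that 5.09% of all probe sets passed in that fit, 2.35% with the Y-spermatozoa side higher. With the block and normalized values under the common background level raised to it, the limma p was 0.134.

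**Figure D2:**
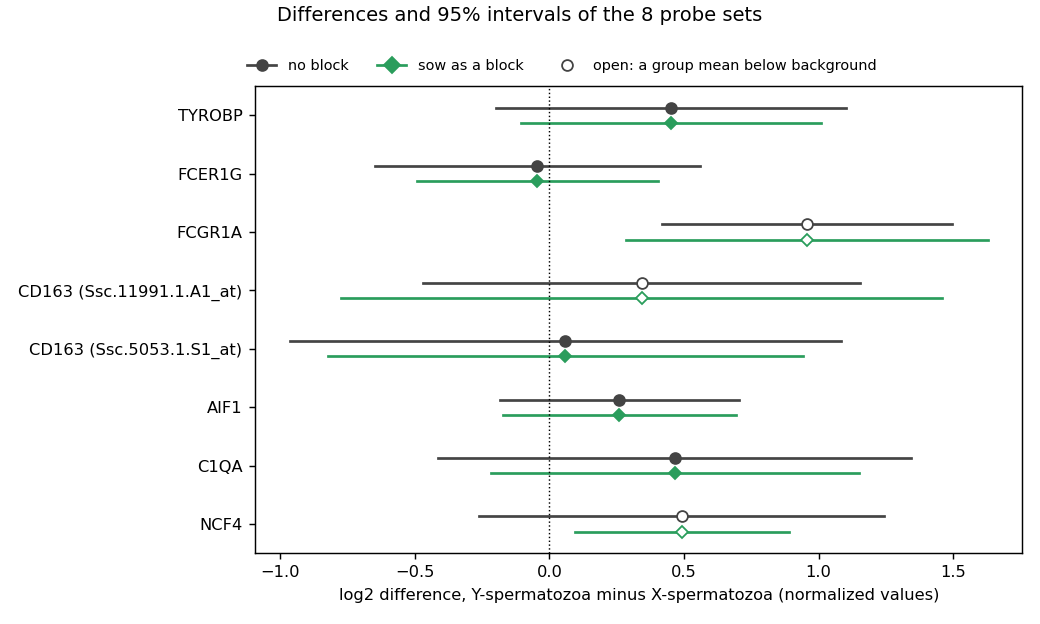
Log2 difference between Y- and X-spermatozoa (horizontal axis, normalized values) of the 8 probe sets, with 95% intervals from limma without a block (circles) and with the sow as a block (diamonds). Open symbols mark probe sets with a group mean below background, and only FCGR1A, and NCF4 with the block, have intervals that leave out 0.

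The members did not share a direction across the sows. In sow 1, 4 of the 8 probe sets were higher with Y-spermatozoa, with log2 differences from -0.23 to 1.22. In sow 2 all 8 were higher, by 0.37 to 1.07. In sow 3, 5 were higher and the range was from -0.93 to 1.499, and in sow 4, 7 were higher, from -0.14 to 1.41. Over all probe sets, 48.5% to 50.3% were higher with Y-spermatozoa in a sow. The Y-spermatozoa array of sow 2 held the highest signal of 6 of the 8 members (TYROBP, FCER1G, AIF1, C1QA, NCF4 and the brighter CD163 probe set), and of 12.1% of all probe sets. Without this array the median log2 difference of the 7 genes fell from 0.45 to 0.27, and without sow 2 to 0.25. Leaving out the X-spermatozoa array of sow 3 lowered it as far, to 0.24.

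**Figure D3:**
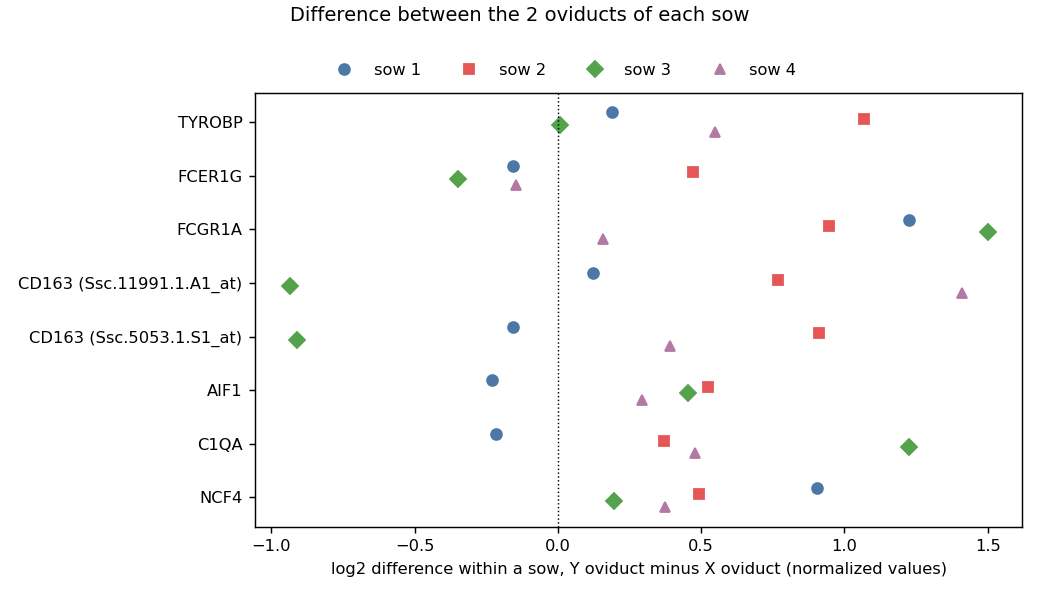
Log2 difference between the Y-spermatozoa and X-spermatozoa oviduct within each sow (horizontal axis, normalized values) for the 8 probe sets. Each symbol is 1 sow. The squares of sow 2 lie to the right of 0 for all 8 probe sets, from 0.37 to 1.07, while sow 3 spans -0.93 to 1.499.

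The order of sides that CD163 had in the sows was also seen in some genes of other lists. The signal of its brighter probe set was lower with Y-spermatozoa in sows 1 and 3 and higher in sows 2 and 4, which held for 7.53% of all probe sets. This order was shared by 3 of the 8 measured stromal and smooth muscle markers. These were the matrix proteoglycan genes DCN and LUM and the mesenchymal filament gene VIM. Of 7 measured complement and integrin genes, 3 had it (C1QC, C1R and C1S). Single genes had it in the epithelial list (MUC1, 1 of 9), the endothelial list (TEK, 1 of 7) and the B cell list (JCHAIN, 1 of 3). No measured T cell, granulocyte, mast cell or red blood cell marker had it. Among the other related genes FCGR3A, LCP2, RAC2, KLF4, MRC1, CD40 and CCR7 had it, CCR7 with signals below background on 7 arrays. The dimmer CD163 probe set did not have it, as in sow 1 its signal was 5.3 with X- and 5.5 with Y-spermatozoa. DCN had signals of 766, 1078, 1273 and 794 with X-spermatozoa and of 576, 1549, 800 and 1433 with Y-spermatozoa. VIM differed in sow 3 by little, at 1993 and 1989, and after normalization its difference there was 0.02, so it lost the order. KLF4 lost it likewise, with a normalized difference of 0.001 in sow 3. The comparison was made after the values were seen, and the part of stromal cells in the CD163 values was not tested. The contractile genes ACTA2, DES and TAGLN did not have this order. The summed signal of the 8 stromal markers ranged from 6014 to 9721 with X-spermatozoa and from 4233 to 10116 with Y-spermatozoa, and none of the 8 passed the test.

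The sum of 9 epithelial markers was higher with Y-spermatozoa in the deposited signals. It was 14350 to 17062 with X-spermatozoa and 17110 to 17984 with Y-spermatozoa, higher in 4 of 4 sows (exact two-sided permutation test, p = 0.0286, the smallest possible, 1 of 15 sums compared). OVGP1, the brightest gene of this list, weighed most in the sum. Its means were 7159 with X-spermatozoa and 8674 with Y-spermatozoa, against 15323 and 17566 for the sum. A sum without OVGP1 was not tested, so the shift is not shown for the epithelial markers as a set. After quantile normalization the sums overlapped, at 15462 to 16654 and 15948 to 17290, and were higher with Y-spermatozoa in 3 of 4 sows (exact p = 0.371). None of the 9 genes passed in limma. However, this normalization gives the brightest probe sets nearly equal values on every array. OVGP1 was at the 99.97th percentile of mean signal. In sow 3 its signals of 7736 and 9035 became a normalized difference of 0. The normalized values therefore cannot decide whether OVGP1 shifted. The part of the shift in the members' values was not tested.

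**Figure D4:**
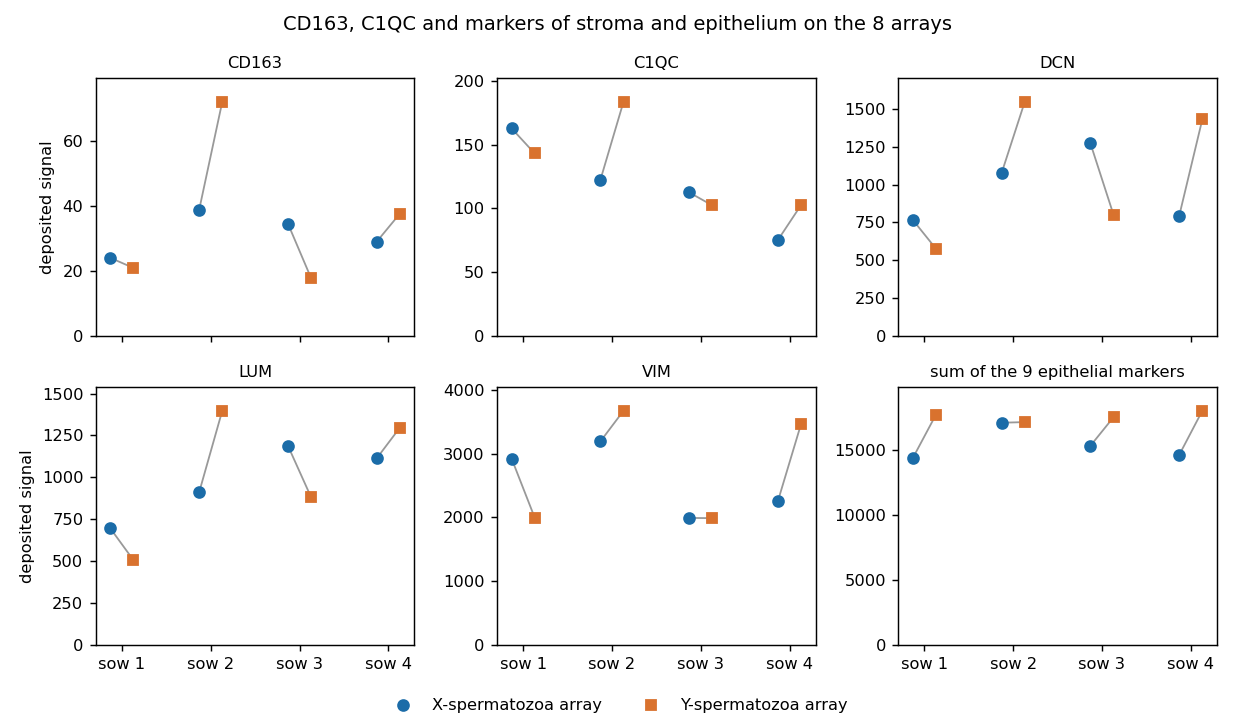
Deposited signal (vertical axes, from 0) of the brighter CD163 probe set, C1QC, DCN, LUM, VIM and the sum of 9 epithelial markers on the 8 arrays, by sow (horizontal axis). Circles are X-spermatozoa arrays and squares Y-spermatozoa arrays. In the first 5 panels the square is lower than the circle in sows 1 and 3, by little for VIM in sow 3, and higher in sows 2 and 4.

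Genes that act with the members were examined in 6 lists of 93 genes, of which 54 were measured. Of these, 2 were higher with Y-spermatozoa at an unadjusted p under 0.05 and 0 were lower, which is 3.7% against 3.56% of all probe sets. None passed after adjustment in limma. Both genes that passed, PTPRC and CD209, had a mean below background with X-spermatozoa, and of the 40 genes with both means above background none passed. In those 40 genes the log2 differences ranged from -0.61 (CSF3) to 0.35 (ITGB2).

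Among Fc receptors and ITAM signalling genes, 12 of 21 were measured, 1 was higher and none lower, with a median log2 difference of 0.10. PTPRC, the phosphatase CD45 found on all white blood cells, had signals of 9.2, 5.0, 6.8 and 7.6 with X-spermatozoa and of 12.1, 15.7, 8.8 and 9.8 with Y-spermatozoa. It was higher in 4 of 4 sows, but the groups overlapped and 6 of the 8 values were below background (limma p = 0.0171, or 0.0469 with sows blocked, adjusted p = 1, exact permutation p = 0.0571). TREM1, a receptor that signals through TYROBP, PTPN6, the inhibitory phosphatase SHP-1, and the kinase gene BTK lay below background on all 8 arrays and did not pass (exact permutation p = 0.143, 0.0857 and 0.343). The low-affinity IgG receptor FCGR3A, which also uses FCER1G, was at 45.4 to 98.3 and had a log2 difference of 0.20 (standard error 0.27, limma p = 0.474, exact permutation p = 0.514). The inhibitory receptor FCGR2B, which works without an adaptor, was at 20.0 to 34.5 with a difference of -0.11. GRB2, the brightest of the list, differed by -0.04 (standard error 0.10).

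No oxidase gene passed. The list had 4 measured genes of 7 and a median of -0.01. CYBA, the p22phox membrane subunit, had signals of 387 to 549 and a log2 difference of 0.12 (standard error 0.12, 95% interval -0.16 to 0.41). NCF1, the organising subunit p47phox, was at 7.4 on the Y-spermatozoa array of sow 2, the array on which NCF4 was highest, and at 20.2 to 40.4 on the others. RAC1 and RAC2, the GTPases of the complex, differed by 0.06 and -0.08.

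Of the complement and integrin genes, 7 of 7 measured had a positive log2 difference, against 50.7% of all probe sets, and none passed. The median was 0.19, while C1QC, C1R and C1S were lower with Y-spermatozoa in sows 1 and 3. The list held ITGB2, the common beta chain of the leukocyte integrins, at 0.35 (standard error 0.23, limma p = 0.165, exact permutation p = 0.229), CALR, a chaperone exposed on dying cells, at 0.10, and the proteases C1R at 0.15 and C1S at 0.09. CR1 and ITGAM had a group mean below background and did not pass.

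Of the growth factors and transcription factors of the myeloid lineage, 10 of 16 were measured, none passed and the median was 0.04. SPI1, the factor PU.1 that drives macrophage genes, was at 11.2, 10.5, 5.8 and 7.4 with X-spermatozoa and at 12.5, 15.0, 17.5 and 6.8 with Y-spermatozoa, below background on 4 arrays (limma p = 0.112, exact permutation p = 0.171). CSF3, the granulocyte growth factor, was below background on 3 arrays. It fell short of the threshold at a log2 difference of -0.61 (standard error 0.29, limma p = 0.0723, exact permutation p = 0.0857). IL34, a ligand of the CSF1 receptor, differed by -0.30 (limma p = 0.175, exact permutation p = 0.229) and IRF8, a factor of dendritic cell development, by 0.05. ID2 was below background in both group means, and CEBPB, the brightest of the list, differed by -0.01.

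Scavenger receptors and lysosomal genes had a median log2 difference of 0.05 over 12 measured genes of 19, and none passed. CTSS, the cysteine protease that cleaves the invariant chain in antigen-presenting cells, was at 295 to 535 and differed by 0.23 (standard error 0.19, limma p = 0.268, exact permutation p = 0.286). LGMN, another lysosomal protease, differed by 0.09 and LAMP2, a membrane protein of lysosomes, by -0.07. The mannose receptor MRC1, which like CD163 marks tissue macrophages, was at 13.6 to 29.6 with a log2 difference of 0.16. Its deposited signals had the same order of sides in the sows as CD163, while the normalized values of sow 1 were equal. MARCO and CD14 each had a group mean below background. MARCO was lower with Y-spermatozoa in 4 of 4 sows without passing (exact permutation p = 0.257).

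Of the dendritic cell genes, 9 of 18 were measured, 1 was higher, none lower and the median was -0.04. CD209, the lectin DC-SIGN, had signals of 7.9, 8.0, 4.9 and 4.5 with X-spermatozoa and of 7.9, 12.6, 11.6 and 10.6 with Y-spermatozoa, of which 6 were below background (limma p = 0.0096, or 0.0224 with sows blocked, adjusted p = 1, exact permutation p = 0.0286). These signals overlapped, and only the normalized values used in the tests set the groups apart, which held for 2.07% of all probe sets. The costimulatory gene CD86 was above background on all arrays at 18.9 to 58.0, with a log2 difference of 0.31 (standard error 0.37, limma p = 0.432, exact permutation p = 0.486). CD83, a marker of mature dendritic cells, was lower with Y-spermatozoa in 4 of 4 sows, with a mean below background and without passing (limma p = 0.208, exact permutation p = 0.229). XCR1, the receptor of cross-presenting dendritic cells, differed by -0.32 (limma p = 0.225, exact permutation p = 0.4), and CCR7, which guides dendritic cells to lymph nodes, was below background on 7 arrays. The chemokine gene CXCL16, the brightest of the list, differed by 0.13.

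**Figure D5:**
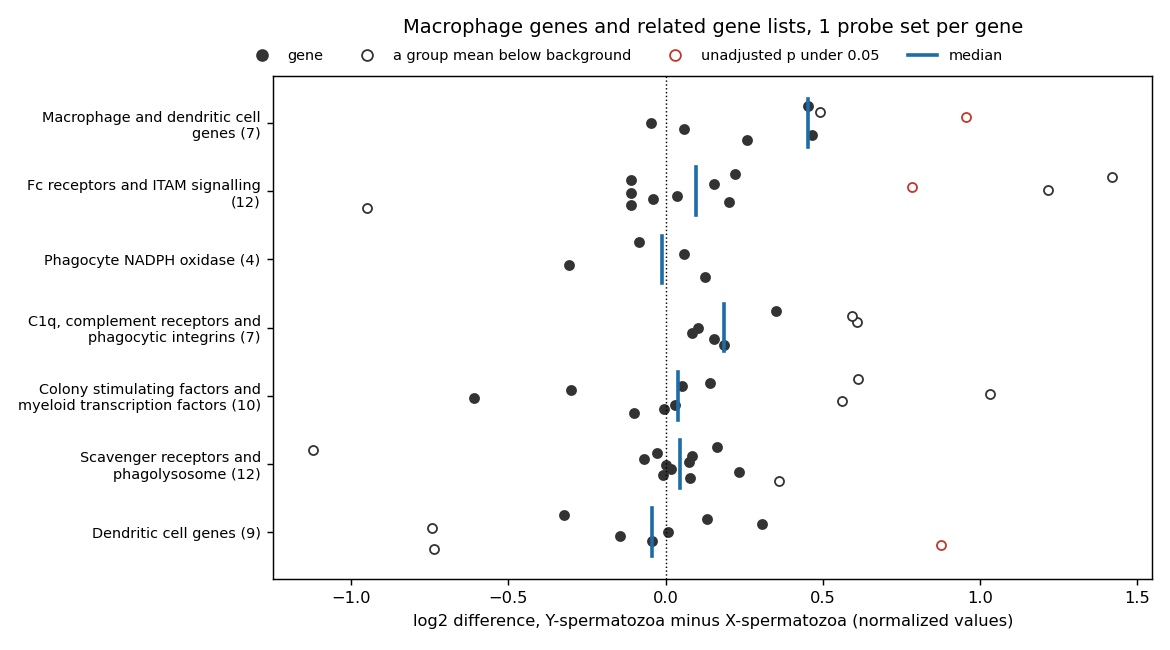
Log2 difference between Y- and X-spermatozoa (horizontal axis, normalized values) of the 7 member genes and of the measured genes of 6 related lists, 1 probe set per gene, with the number of genes in brackets. Blue bars are medians, from -0.04 to 0.45, open symbols have a group mean below background, and the 3 red symbols (FCGR1A, PTPRC and CD209) passed an unadjusted p under 0.05.

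Markers of other cell types gave no call. Of 46 measured markers of T cells, B cells, granulocytes, mast cells, red blood cells, endothelium, stroma and epithelium, none passed in limma. The T cell co-receptor gene CD8A was the brightest of its list at 17.9 to 31.1, and CD4 was below background on all 8 arrays. The granulocyte gene S100A8 was below background on all 8 arrays, S100A9 on 4 and ELANE on 7, whereas lactoferrin (LTF), which oviduct epithelium can also make, was at 642 to 1714. The immunoglobulin joining chain JCHAIN varied between 118 and 459 with a log2 difference of 0.00 (standard error 0.46). The stem cell factor receptor KIT differed by 0.01, the globin gene HBB by -0.08 and the endothelial cadherin gene CDH5 by 0.25. The endothelial gene VWF was at 34.2 to 89.2, higher with Y-spermatozoa in 4 of 4 sows, and passed only with the sow as a block (limma p = 0.0422, and 0.215 without it, exact permutation p = 0.2), as did ALAS2 of the red blood cell list (0.0115, and 0.4 without it). In the blocked fit 5.09% of all probe sets passed, and the adjusted p of both genes was 0.895.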

How the data were processed

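The authors deposited linear intensities from the Affymetrix Porcine array, 1 signal per probe set and oviduct, made with Microarray Suite 5.1 (MAS5 5.1 per the labels) and scaled to a 2% trimmed mean of 100.02 on each array. The RMA values of the methods were not used here. Signals were quantile normalized, values under 1 set to 1, and log2 values of 23999 probe sets, without 124 AFFX controls, were compared with limma 3.58.1 (R 4.3.3), two-sided, with Benjamini-Hochberg adjustment over all of them. X and Y arrays with the same number in the labels were taken as the oviducts of 1 sow of this paired design, and within a sow the arrays deviated together (r = 0.13 to 0.19 about the group means), so the sow was used as a block in an alternative fit. Other alternatives covered scaling, floors, filters, covariates and left-out arrays. Exact permutation tests used 70 relabellings and ignore the pairing, and those of single genes used the normalized log2 values. The test was tried on simulated data.

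Symbols come from the platform annotation (10099 probe sets with 1 symbol, 198 with several, 13826 with none). Lists used the brightest probe set per gene. Named were all members, of each related list the brightest gene and up to 4 with the smallest p, and of each cell type list the brightest gene and any past the threshold; FCGR3A, FCGR2B, C1R, C1S, IRF8, MRC1, CD86, DCN, LUM, ACTA2, DES, TAGLN, CD4, S100A8, S100A9, ELANE, VWF, ALAS2, EPCAM, TEK, MUC1, LCP2, KLF4 and CD40 were added after their values were seen. Members and lists were chosen with earlier results of these data known. Python 3.11.15 with matplotlib 3.10.9 made the figures. Genome positions were not used here.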

Additional observations from a re-analysis of the deposited data

Results flagged for a closer look

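In 3 of the 46 groups of 4 arrays examined, 1 array stood apart from the other 3 by a gap larger, against the whole range of the group, than Dixon's critical value at the 95% level, which chance alone gives in about 1 in 20 groups. For TYROBP with X-spermatozoa the array of sow 1 lay above the others, with a gap of 0.907 of the range. For NCF4 with Y-spermatozoa the array of sow 2 lay above the others, with a gap of 0.851. For FCGR1A with X-spermatozoa the array of sow 4 did so, with a gap of 0.932, where 2 of the other normalized values are at the floor of 1 and all are below background.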

How the results depend on the processing

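The count of member probe sets past an unadjusted p of 0.05, 1 of 8, and of member genes, 1 of 7, became 2 and 2 with the sow as a replicate block, 0 and 0 with 16 added before log2, with a floor at background (with or without the block), with the hybridisation controls as a covariate, and with the brighter probe sets only (with or without the block), where AIF1 alone was tested. Without probe sets below background in both groups 0 of 6 passed. Leaving out 1 array or sow gave 1 to 2 for both counts, 767 to 1029 of all probe sets instead of 855, 1 to 5 genes of the related lists instead of 2, and a median of the member genes of 0.24 to 0.53. All probe sets called were 1459 with the sow as a random block, 1222 as a fixed block, 1422 with the block and a floor at background, and 311 of the 11999 brighter ones alone. Genes called in the related lists were 1, higher with Y-spermatozoa, with a floor at background, 1, lower, with that floor and the block, 0 among brighter probe sets, also with the block, and 4 with the covariate. The median of the member genes stayed positive in all alternatives, at 0.18 with 16 added and 0.68 with the covariate. With the covariate, which largely follows the sperm type, FCER1G turned to 0.31, and TYROBP was 0.92, AIF1 0.62 and the brighter CD163 probe set 0.93, none of them called. For FCER1G leaving out 1 array or sow gave -0.22 to 0.10. The same step gave -0.34 to 0.38 for the brighter CD163 probe set and, for the dimmer one, from -0.0138 (without sow 4) to 0.77. TYROBP, FCGR1A, AIF1, C1QA and NCF4 kept their sign, except that FCGR1A was 0 with the floor at background, but their size moved: leaving out 1 array or sow gave 0.25 to 0.66 for TYROBP, 0.15 to 0.42 for AIF1 and 0.15 to 0.72 for C1QA. Low signals limit FCGR1A, NCF4 and the dimmer CD163 probe set, for which background gives no fold.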
